A study of Mus musculus with 8 samples.

Results

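Immunoglobulin heavy and light chain genes were examined in RNA from mouse aorta, as the members of the gene table whose symbols name a heavy chain constant region, a heavy chain variable segment, or a kappa or lambda constant region or variable segment. Of 361 such genes among 35896 in the table, the 146 with at least 10 counts summed over the 8 libraries were kept. They comprised 11 constant region genes and 135 variable segments, of which 67 were heavy chain, 65 kappa and 3 lambda segments. They were chosen by symbol and by this summed count, with earlier results of these data known. Just inside that limit lay 1 gene with 11 counts and 4 with 10, and just outside it lay 1 gene with 9 and 5 with 8. Of the genes left out, 154 had no count in any library, 61 had 1 to 9 counts, and the IgE gene Ighe was among them with 4.

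The study infused male C57BL6 mice with angiotensin II (AngII), a vasoconstrictor peptide, to ask which vascular changes outlast the hormone. Minipumps were implanted at 11 weeks of age and delivered 2.8 mg/kg/day for 2 weeks. Mice were killed when the infusion ended (AngII), 2 weeks later (AngII+2W) or 3 weeks later (AngII+3W), and untreated age-matched littermates killed at the same times served as control (CTRL), although the sources used here do not say which time each CTRL library stands for. Each group had 2 libraries, and each library held the pooled aortic tissue of 2 mice, so that 16 mice gave 8 libraries, with no genetic change in any group and no sham pump described for CTRL.

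Antibodies are made of paired heavy and light chains, and each chain joins a variable segment, which binds antigen, to a constant region. The heavy chain constant region sets the isotype: naive B cells make IgM and IgD, and switched B cells make IgG, IgA or IgE. The plasma cells that secrete antibody make IgM or a switched isotype. In bulk tissue RNA these transcripts come mostly from B cells and plasma cells, which in arteries are found chiefly in the adventitia and the surrounding fat. Fewer cells of a type and less RNA per cell cannot be told apart in such libraries.

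All 146 members were found in the GENCODE M21 annotation of mouse build GRCm38, with 74 on chromosome 12 (heavy chain), 66 on chromosome 6 (kappa) and 6 on chromosome 16 (lambda). The constant regions were annotated as IG_C_gene and the variable segments as IG_V_gene. The libraries held between 18130441 and 21498200 counts, and 3 counts, taken as the floor of detection, corresponded to 0.140 to 0.165 counts per 1000000 (CPM). Smooth muscle markers were abundant in every library, with Acta2, the smooth muscle actin, between 349.7 and 3057 CPM. Adipocyte genes were also abundant in all 8, summing to between 6792 and 10621 CPM over 7 genes. AngII+3W replicate 1 stood apart, with 380.3 CPM of the skeletal muscle actin Acta1 against at most 2.05 in the other 7 libraries, and with the highest mitochondrial share (18.3%).

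Immunoglobulin transcripts were most abundant in 1 of the AngII libraries. Summed over all members, CTRL replicates 1 and 2 held 128 and 213 CPM, and AngII replicates 1 and 2 held 186 and 579 CPM. AngII+2W held 176 and 166 CPM, and AngII+3W held 273 and 206 CPM. AngII replicate 2 was thus the highest library, whereas AngII replicate 1 lay between the CTRL libraries. The AngII mean was 382 ± 278 CPM (SD, n = 2) against 170.5 ± 60.1 for CTRL, 171 ± 6.93 for AngII+2W and 239 ± 47.0 for AngII+3W. The constant region sum was 101.2 and 173 CPM in CTRL and 142 and 429.5 CPM in AngII, so that the groups overlapped. The variable segment sum was 26.7 and 40.4 CPM in CTRL, 43.6 and 149 for AngII, 41.3 and 39.1 for AngII+2W and 61.4 and 48.9 for AngII+3W, and only AngII+2W overlapped CTRL. The ratio of variable to constant counts was 0.264 and 0.234 for CTRL and between 0.291 and 0.348 in the other 6 libraries. No p-value was computed for these sums, and 2 libraries against 2 cannot give a two-sided exact permutation p below 0.333.

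Ighm (chr12:113418558-113422730, minus strand), the constant region of IgM, was the most abundant heavy chain gene in CTRL, with 63.3 and 105 CPM. It measured 58.2 and 36.5 CPM in AngII, 43.7 and 34.8 for AngII+2W and 128 and 37.1 for AngII+3W. Both AngII and both AngII+2W libraries lay below both CTRL libraries, whereas those of AngII+3W lay on either side of them. The log2 fold change of AngII over CTRL was -0.83 ± 0.53 (SE, FDR = 0.442), which did not pass the threshold of FDR 0.05. It was -1.10 ± 0.53 for AngII+2W (FDR = 0.521) and -0.03 ± 0.52 for AngII+3W (FDR = 0.988). Ighd, which encodes the IgD constant region that naive B cells carry with IgM, was scarce and varied little, with 2.10 and 3.72 CPM in CTRL, 2.05 and 2.51 for AngII, 4.11 and 3.01 for AngII+2W and 2.80 and 1.93 for AngII+3W. Its log2 fold changes over CTRL lay between -0.35 and 0.29, and none passed the test.

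Igha (chr12:113254830-113260236, minus strand), the constant region of IgA, the isotype of mucosal secretions, spanned the widest range in CPM of any member. It was lowest in CTRL, with 3.41 and 17.4 CPM, and measured 32.6 and 211 CPM in AngII, 39.7 and 43.7 for AngII+2W and 19.2 and 64.1 for AngII+3W. Every library from an infused group lay above both CTRL libraries. Within both CTRL and AngII, replicate 2 was several times higher than replicate 1. The log2 fold change over CTRL was 3.55 ± 1.05 for AngII (FDR = 0.102), 2.00 ± 1.00 for AngII+2W (FDR = 0.538) and 2.00 ± 1.00 for AngII+3W (FDR = 0.466), and none passed. Without AngII replicate 2 the log2 fold change in AngII was 1.65 (FDR = 0.520). With all libraries, its FDR was 0.0387 by DESeq2 and 0.00782 by the likelihood ratio test.

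The 4 IgG constant regions were low in CTRL, and 2 of them rose in AngII. IgG is the main antibody of serum in immune responses, and C57BL6 mice carry Ighg2c in place of the Ighg2a of some other strains. The Ighg genes lie next to each other on chromosome 12 and resemble each other, so that reads from their shared parts may be split among them by the counting. Their hinge exons, which link the antigen-binding arms to the tail of the antibody and which differ most between the genes, are shown to make this visible, read 5′ to 3′ on the minus strand of GRCm38, with the longest run shared by Ighg2b and Ighg2c (15 bases) in capitals.
Ighg1, chr12:113329844-113329882: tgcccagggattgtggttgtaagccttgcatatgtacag
Ighg2b, chr12:113307261-113307326: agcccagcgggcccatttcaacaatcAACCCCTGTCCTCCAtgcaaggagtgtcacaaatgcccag
Ighg2c, chr12:113288263-113288325: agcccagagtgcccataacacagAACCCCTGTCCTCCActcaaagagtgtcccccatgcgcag
Ighg3, chr12:113360529-113360576: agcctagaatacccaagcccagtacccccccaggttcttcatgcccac
Ighg2b and Ighg2c matched at 77.3% of hinge bases, against 42.4% for Ighg1 and Ighg2b, and at 94.2% of the neighbouring CH2 exon, against 73.9% for Ighg1 and Ighg2b. In the CH1 exon Ighg1 matched Ighg2b at 88.3% and Ighg2c at 88.0%, and Ighg2b matched Ighg2c at 87.6%. Values for Ighg2b and Ighg2c are therefore uncertain as to the split between the pair, and reads from CH1 may also be split with Ighg1.

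Ighg2b (chr12:113302965-113307933, minus strand) had 2 and 5 counts in CTRL, 95 and 128 for AngII, 37 and 45 for AngII+2W and 28 and 26 for AngII+3W. In CPM these were 0.0974 and 0.235, then 5.13 and 6.07, then 1.73 and 2.42, and then 1.51 and 1.40. The 4 groups did not overlap and the replicates of each infused group lay close together, which those of AngII did not for Igha, Ighg1 or Ighg2c. Ighg2b rose in AngII by 5.01 ± 0.42 on the log2 scale (SE, FDR = 0.00530), and the ratio of group CPM from the counts was 33.6 (95% interval 16.0 to 84.5, counting error only). Without AngII replicate 2 the log2 fold change was 4.89 with an FDR of 0.0543. The differences of AngII+2W and AngII+3W from CTRL were 3.58 ± 0.43 (FDR = 0.174) and 3.07 ± 0.44 (FDR = 0.0501). Neither passed, although Ighg2b ranked first by p among the members in both comparisons and DESeq2 gave FDRs of 0.000186 and 0.00153. Between AngII and AngII+3W, Ighg2b fell by 1.94 ± 0.32 on the log2 scale (FDR = 0.0410), and between AngII and AngII+2W the difference was -1.44 ± 0.31 (FDR = 0.0981). The call between AngII+3W and AngII was lost when any of 5 libraries was left out, AngII replicate 1 or 2 (FDR = 0.0855 and 0.256), AngII+2W replicate 1 or 2 (FDR = 0.0826 and 0.0830) or AngII+3W replicate 1 (FDR = 0.115).

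Ighg2c (chr12:113285325-113288932, minus strand) measured 1.12 and 0.423 CPM in CTRL (23 and 9 counts), 4.32 and 28.7 for AngII (80 and 606 counts), 4.71 and 4.51 for AngII+2W and 1.51 and 3.98 for AngII+3W. Each infused library was above both CTRL libraries, and AngII replicate 2 was far above its partner. Ighg2c rose in AngII by 4.42 ± 0.96 (SE, log2 fold change, FDR = 0.0435). That call was lost without CTRL replicate 1 or 2 (FDR = 0.164 and 0.203), AngII replicate 2 (FDR = 0.204) or AngII+2W replicate 1 or 2 (FDR = 0.0986 and 0.0984), and the log2 fold change without AngII replicate 2 was 2.48. Its log2 fold change was 2.58 ± 0.96 for AngII+2W (FDR = 0.393) and 1.83 ± 0.98 for AngII+3W (FDR = 0.497).

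Ighg1 was not detected above the floor in CTRL, with 0 and 2 counts, and had 10 and 110 for AngII, 2 and 0 for AngII+2W and 14 and 3 for AngII+3W. Its log2 fold change in AngII, 5.75 ± 1.52, was larger than that of Ighg2b but missed the threshold (FDR = 0.0763). The count ratio of 63.3 had an interval of 17.1 to 528, which covers counting error only and not the spread between the AngII libraries. Ighg3 was low throughout, with 1 and 20 counts in CTRL, 5 and 7 for AngII, 1 and 0 for AngII+2W and 11 and 3 for AngII+3W. The AngII libraries lay between those of CTRL. The log2 fold change of Ighg3 in AngII was -0.71 ± 1.10 (FDR = 0.783), and it became 2.47 without CTRL replicate 2.

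**Figure D1:**
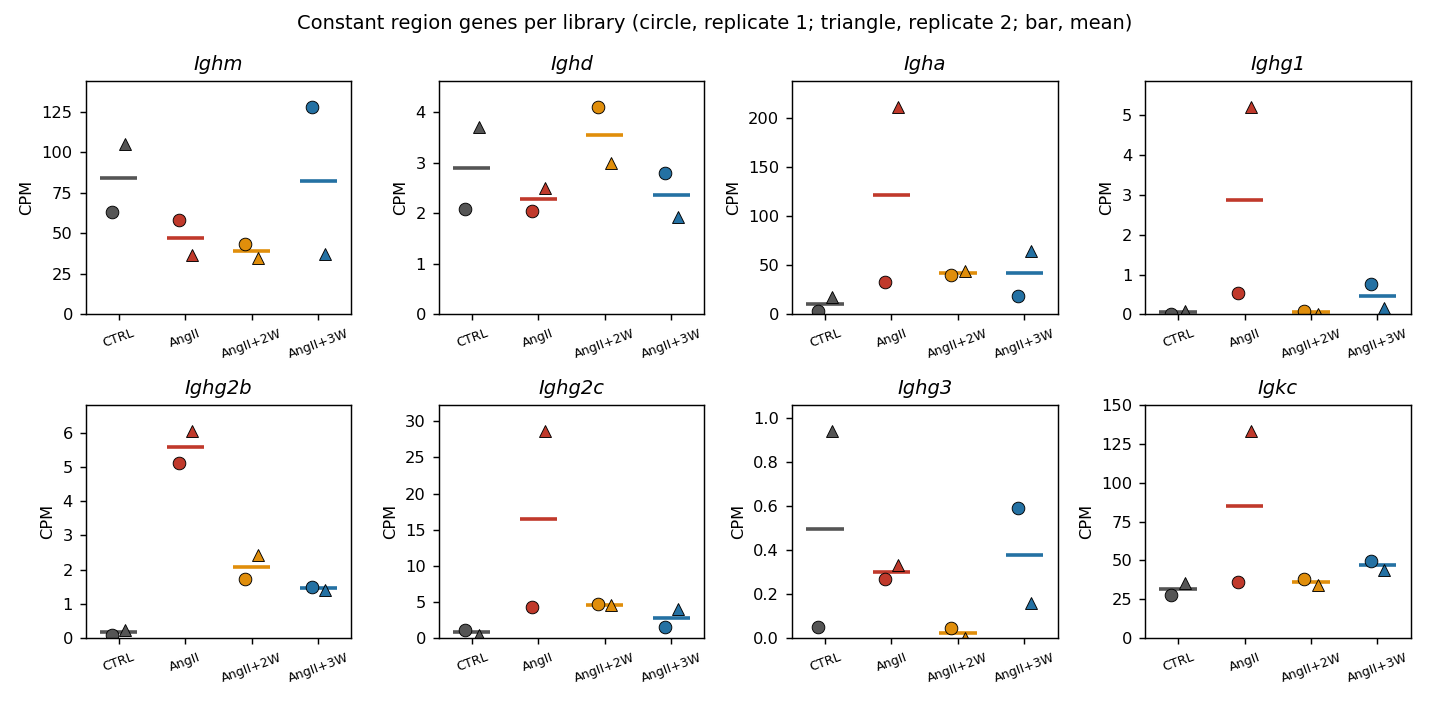
CPM of 7 heavy chain constant region genes and of Igkc, by group, with 1 point per library and a bar at the group mean. Ighg2b is the gene whose 2 AngII libraries, at 5.13 and 6.07 CPM, sit together above all others, whereas for Igha, Ighg1, Ighg2c and Igkc AngII replicate 2 sits alone.

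IgM made up most of the heavy chain pool in CTRL and less of it in AngII and AngII+2W. IgM took 90.3% (95% Wilson interval 88.7 to 91.8, counting error only) and 82.2% (80.7 to 83.6) of heavy constant counts in CTRL. It took 56.4% (54.2 to 58.7) and 12.6% (11.8 to 13.4) in AngII, 46.4% and 39.4% for AngII+2W, and 82.9% and 34.1% for AngII+3W. AngII+3W replicate 1 lay between the CTRL libraries and its partner below AngII+2W, so that the 2 libraries of that group lay far apart. IgA took 4.86% and 13.6% for CTRL, 31.6% and 72.7% for AngII, 42.2% and 49.4% for AngII+2W, and 12.4% and 58.9% for AngII+3W. The IgG genes together took 1.81% and 1.32% for CTRL, 9.96% and 13.9% for AngII, 6.99% and 7.83% for AngII+2W, and 2.82% and 5.23% for AngII+3W, so that the IgG share separated each infused group from CTRL. The ratio of switched (IgA and IgG) to IgM and IgD counts was 0.0715 and 0.175 for CTRL, 0.711 and 6.45 for AngII, 0.969 and 1.34 for AngII+2W and 0.180 and 1.79 for AngII+3W. These shares compare genes of unequal length. Per kilobase of the shortest annotated transcript, IgM took 86.1% and 76.2% in CTRL and 48.5% and 9.55% in AngII, and per kilobase of the longest 91.5% and 86.4% in CTRL and 63.3% and 16.0% in AngII. In AngII+3W replicate 1, whose shares were nearest to those of CTRL, the skeletal muscle genes summed to 1945 CPM against 5.15 to 75.1 in the other libraries, with no gene of that list at 0 there, and their part in the shares was not tested.

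**Figure D2:**
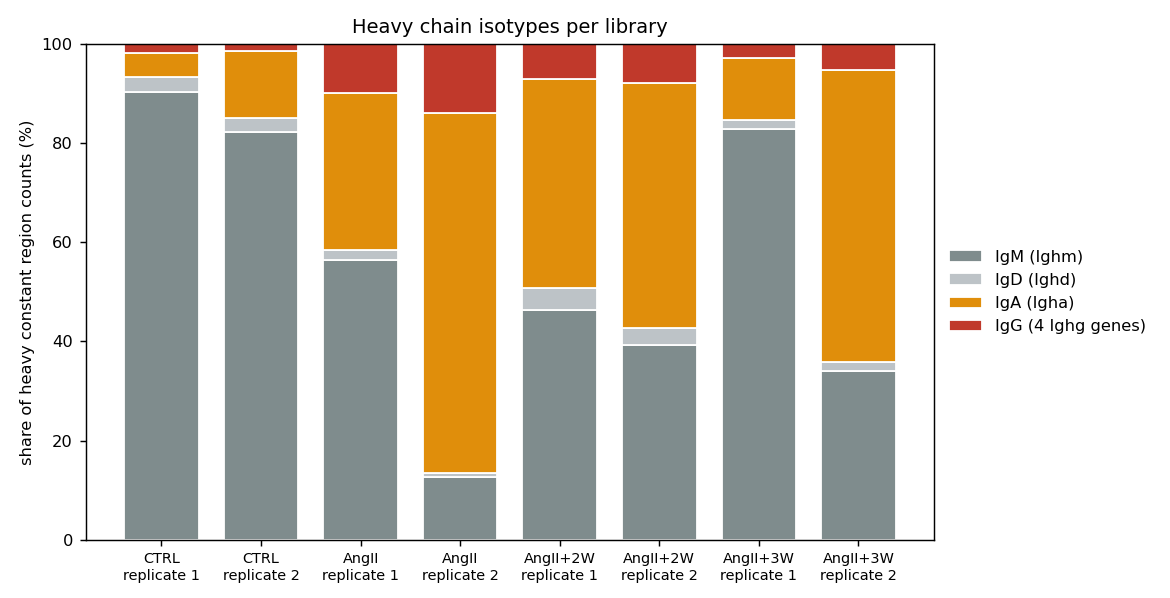
Share of heavy chain constant region counts (%) taken by IgM, IgD, IgA and the 4 IgG genes in each library. IgM stands at 90.3% and 82.2% in the CTRL libraries and at 12.6% in AngII replicate 2, and AngII+3W replicate 1 stands at 82.9% beside 34.1% in its partner.

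Light chains were mostly kappa, as is usual in mice. Igkc (chr6:70726435-70726966, plus strand), the kappa constant region and the only one in the mouse, had 27.6 and 35.5 CPM in CTRL, 36.4 and 134 for AngII, 37.7 and 33.99 for AngII+2W and 49.9 and 44.0 for AngII+3W. AngII replicate 2 was again far above the rest. The log2 fold change of AngII over CTRL was 1.43 ± 0.50 (FDR = 0.155) and did not pass. Without AngII replicate 2 it was 0.21 (FDR = 0.739), with the remaining AngII library assumed to vary like those of the other groups. The lambda constant regions Iglc1, Iglc2 and Iglc3 summed to 3.51 and 9.08 CPM in CTRL, 2.70 and 5.21 for AngII, 3.08 and 4.78 for AngII+2W and 6.88 and 4.30 for AngII+3W, with all groups overlapping, and none of the 3 genes passed a test in any comparison. Iglc2 and Iglc3 matched at 94.1% of transcript bases, so that the split between them is uncertain. Kappa made up 88.7% (86.0 to 91.0) and 79.6% (77.0 to 82.1) of light chain constant counts in CTRL and 93.1% (91.0 to 94.7) and 96.2% (95.5 to 96.9) in AngII. The AngII+2W libraries, at 92.4% and 87.7%, and the AngII+3W libraries, at 87.9% and 91.1%, overlapped CTRL. Among light chain variable counts, lambda took 6.36% and 22.4% in CTRL and 11.0% and 8.77% in AngII. By that measure the AngII libraries lay between those of CTRL.

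Across all 17182 genes tested, 73 of the 146 members passed the filter on low counts, all 11 constant regions but only 62 of 135 variable segments. A member high in 1 group could pass through that group alone, so the counts over these 73 are a description. In AngII against CTRL, 4 members were higher at FDR 0.05 and none was lower, where 2.9% of all tested genes were higher and 2.2% lower. The 4 were Ighg2b, Ighg2c and the heavy chain variable segments Ighv1-82 and Ighv1-19. The count was 0 without AngII replicate 2, 1 (Ighg2b) without CTRL replicate 1, CTRL replicate 2, AngII+2W replicate 1 or AngII+2W replicate 2, and 10 and 9 without AngII+3W replicate 1 and 2. At an unadjusted p below 0.05, 30 members were higher and 0 lower, against 10.9% and 9.29% of all genes. By the count of higher genes, DESeq2 called 15, the likelihood ratio test 28 and limma-voom 3, and none of these called a lower member. The libraries of AngII lay wholly above those of CTRL for 36 of the 73 (24.4% of all genes) and wholly below for 1 (24.9% of all genes), which was Ighm. The median log2 fold change was 2.34 over the 73 members, 0.11 over the constant regions and 2.50 over the variable segments, beside -0.01 over all genes.

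After the infusion no member passed FDR 0.05 against CTRL in this fit. The study itself, also with edgeR, reported Ighg2b as higher in AngII+3W at that threshold. In AngII+2W against CTRL, edgeR called 0 of 73 members, as of all genes (0%), with 9 higher and 2 lower at an unadjusted p below 0.05 (4.52% and 6.18% of all genes). DESeq2 called 2, the likelihood ratio test 4 and limma-voom 0. The libraries lay wholly above CTRL for 24 members (21.7% of all genes) and wholly below for 6 (22.2%). In AngII+3W against CTRL, edgeR called 0 members, where 0.0175% of all genes were higher and 0.268% lower, with 12 higher and 0 lower at an unadjusted p below 0.05 (5.34% and 7.18% of all genes). DESeq2 called 4, the likelihood ratio test 5 and limma-voom 0. The libraries lay wholly above CTRL for 31 members (19.8% of all genes) and wholly below for 2 (18.3%). Over the 73 members the median was 0.61 for AngII+2W and 1.52 for AngII+3W on the log2 scale, beside 0.00 and 0.03 over all genes. The 3 comparisons share the CTRL libraries.

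Compared directly, 1 member differed between the end of the infusion and a later time. In AngII+2W against AngII, 63 of 73 had a negative log2 fold change, with a median of -1.30 beside -0.00 over all genes, and edgeR called 0 (0.0233% of all genes higher, 0.14% lower), with 11 lower and 0 higher at an unadjusted p below 0.05 (8.45% and 6.57% of all genes). DESeq2 called 1, the likelihood ratio test 5 and limma-voom 0. The AngII+2W libraries lay wholly below AngII for 18 members (27.5% of all genes) and wholly above for 1 (26.8%), so that the share below, 24.7%, was no higher than among all genes. In AngII+3W against AngII, 53 of 73 had a negative log2 fold change, with a median of -0.92 beside 0.04 over all genes, and the 1 called member was Ighg2b, which was lower (1.32% of all genes lower, 0.285% higher). At an unadjusted p below 0.05, 8 members were lower and 1 higher (10.4% and 7.41% of all genes), and 16 lay wholly below AngII (24.2%) and 0 wholly above (24.8%), so that the shares lower, 11.0% and 21.9%, were close to those of all genes. Without AngII replicate 2 the log2 fold change of Igha was 0.36 in both comparisons in place of -1.55, and that of Ighg2c was 0.10 in place of -1.84 for AngII+2W against AngII. In AngII+3W against AngII+2W edgeR called 0 members, as of all genes (0%), with 2 higher and 1 lower at an unadjusted p below 0.05 (4.62% and 4.22%), and DESeq2 and limma-voom called 0 while the likelihood ratio test called 1. Here 17 members lay wholly above AngII+2W (20.7% of all genes) and 9 wholly below (19.7%).

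**Figure D3:**
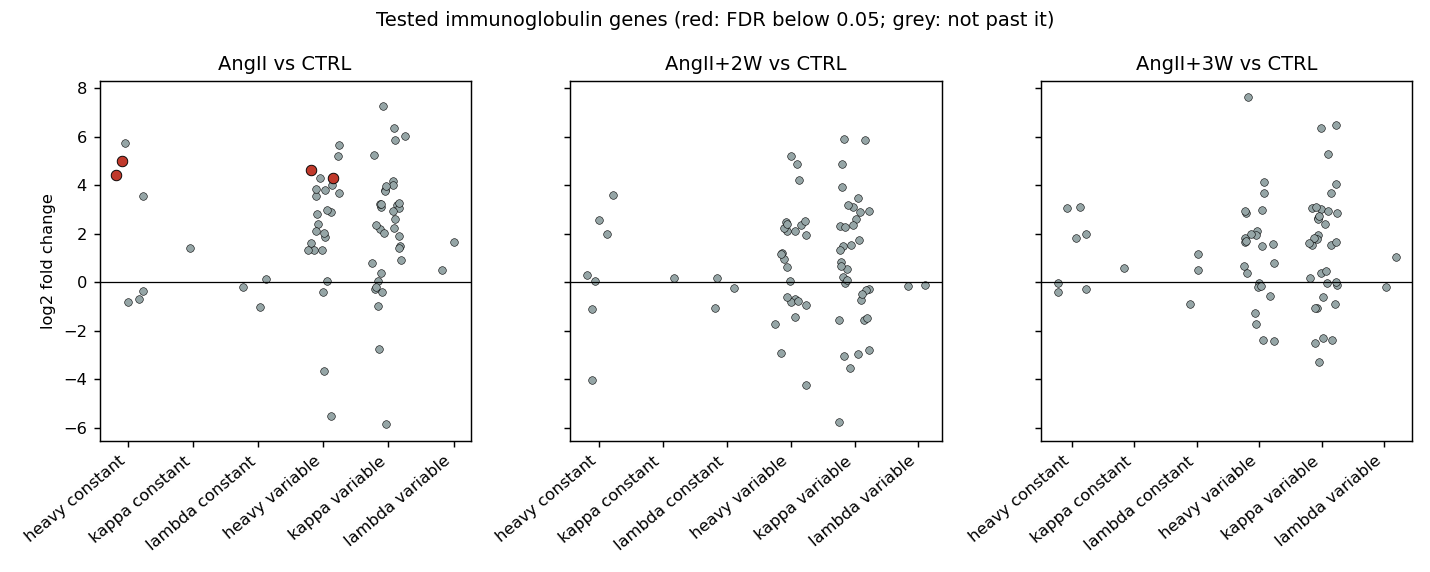
Log2 fold changes over CTRL of the 73 tested immunoglobulin genes, 1 point per gene, by class of gene and by group, with genes past FDR 0.05 in red. In AngII 4 points are red, 2 among the heavy constant regions and 2 among the heavy variable segments, and none is red in AngII+2W or AngII+3W.

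The variable segments joined to these constant regions were spread thinly. The 10 with the highest summed counts were Iglv1, Ighv9-3, Ighv8-8, Igkv1-110, Igkv15-103, Igkv10-96, Igkv1-117, Ighv1-19, Igkv6-15 and Igkv6-20, with 449 counts for Iglv1 and 181 for Igkv6-20. Of these, 9 had a near copy matching at 94.3% to 97.7% of coding bases, and only Igkv15-103 had none closer than 73.5%, so that values for single segments carry the uncertainty of the split. Iglv1, the main lambda segment, had 19 and 93 counts in CTRL, 21 and 132 for AngII, 60 and 39 for AngII+2W and 52 and 33 for AngII+3W. The groups overlapped, and its log2 fold change in AngII was 0.49 ± 0.83 (FDR = 0.809). Ighv9-3 had 3 and 51 counts in CTRL, 11 and 186 for AngII, 40 and 38 for AngII+2W and 35 and 12 for AngII+3W. In both CTRL and AngII replicate 2 was the high library, and the fold change did not pass (1.88 ± 1.24, FDR = 0.458). Ighv8-8 had 16 and 7 counts in CTRL and 29 and 92 for AngII, and AngII+3W replicate 2 was nearly as high, with 78. The 4 kappa segments Igkv1-110, Igkv10-96, Igkv1-117 and Igkv6-15 had between 2 and 24 counts in the CTRL libraries and between 12 and 117 for AngII. Their log2 fold changes in AngII were 1.90, 2.22, 2.19 and 3.20, with FDRs between 0.122 and 0.193. Igkv15-103 had 4 and 61 counts in CTRL and 19 and 99 for AngII (0.90 ± 1.02, FDR = 0.693). Igkv6-20 ran the other way, since 130 of its 181 counts came from CTRL replicate 1 and the other 7 libraries had between 0 and 16.

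**Figure D4:**
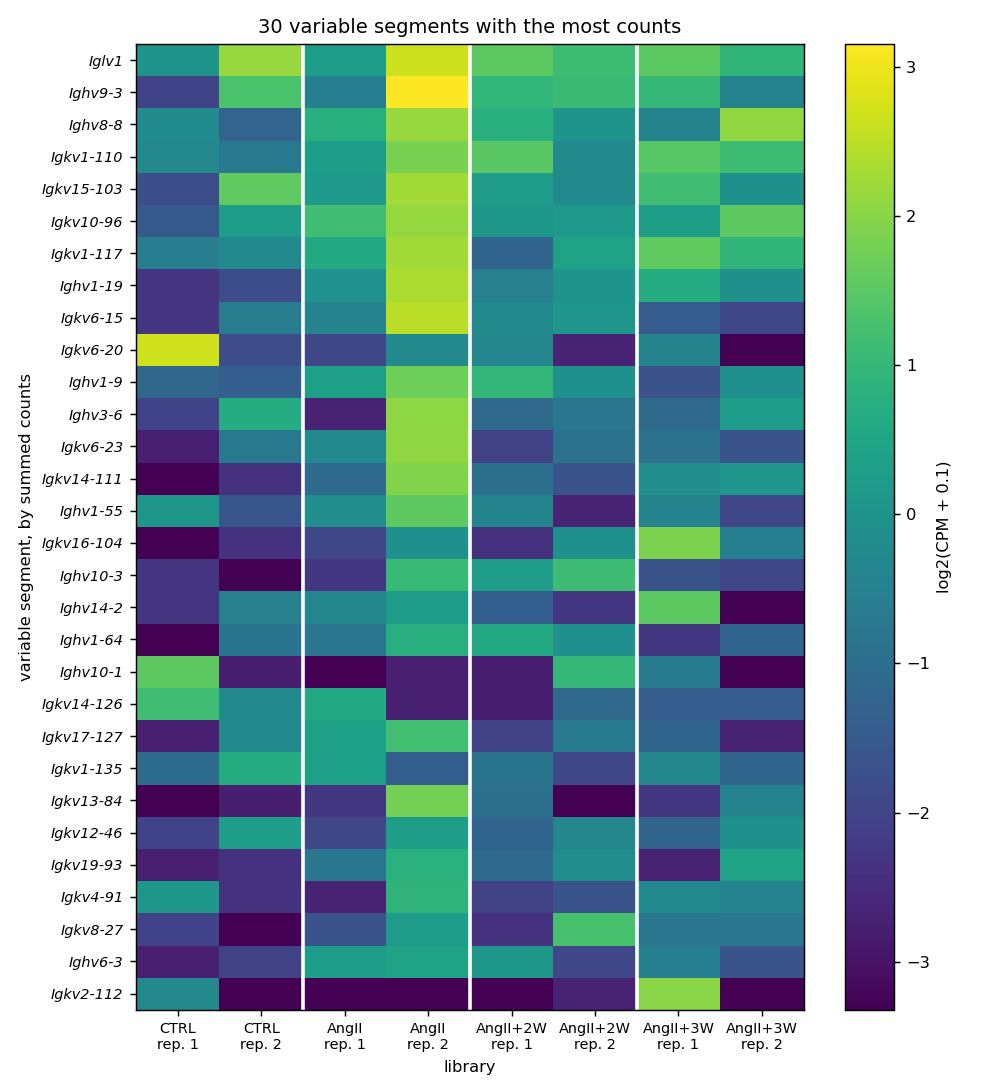
Level of the 30 variable segments with the most counts in each library, as log2(CPM + 0.1), with segments in order of summed counts. AngII replicate 2 is bright for most segments, such as Ighv9-3 with 186 counts, while single segments are bright in 1 library only, such as Igkv6-20 in CTRL replicate 1 with 130 counts.

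Of the variable segments, Ighv1-82 and Ighv1-19 rose in AngII. Both belong to Ighv1, the largest heavy chain family in the mouse. Their variable exons are printed to show how far apart the pair is, laid together without a gap over 294 bases, 5′ to 3′ on the minus strand of GRCm38, with the 44 bases that differ in capitals.
Ighv1-82, chr12:115952538-115952831: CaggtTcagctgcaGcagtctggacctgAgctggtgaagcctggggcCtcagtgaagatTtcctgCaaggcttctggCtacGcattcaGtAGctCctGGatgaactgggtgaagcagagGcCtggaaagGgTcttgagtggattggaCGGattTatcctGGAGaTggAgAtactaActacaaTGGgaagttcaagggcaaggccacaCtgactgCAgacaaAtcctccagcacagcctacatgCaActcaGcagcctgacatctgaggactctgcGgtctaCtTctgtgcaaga
Ighv1-19, chr12:114708648-114708941: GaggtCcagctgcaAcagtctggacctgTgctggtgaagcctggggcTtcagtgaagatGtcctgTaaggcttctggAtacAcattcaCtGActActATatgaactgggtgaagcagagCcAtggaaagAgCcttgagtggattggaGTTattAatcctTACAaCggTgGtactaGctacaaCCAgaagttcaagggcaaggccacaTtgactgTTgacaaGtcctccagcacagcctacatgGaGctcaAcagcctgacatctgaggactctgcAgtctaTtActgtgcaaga
The pair matched at 85.0% of these bases, and each had a closer relative, Ighv1-77 at 89.8% for Ighv1-82 and Ighv1-26 at 95.4% for Ighv1-19. For Ighv1-82 only 294 coding bases were compared, and matches were taken as a share of the longer segment. A closer relative annotated at greater length could therefore have been missed, and the split of reads with it is unknown. Ighv1-82 had 2 and 0 counts in CTRL, 30 and 23 for AngII, 1 and 1 for AngII+2W and 3 and 0 for AngII+3W. It was near the floor in every library outside AngII, and its AngII libraries were close to each other. Its log2 fold change was 4.64 ± 1.01 (SE, FDR = 0.0437), and the count ratio of 27.9 had an interval of 7.36 to 237 (counting error only). Against AngII, AngII+2W and AngII+3W differed by -4.59 ± 1.02 (FDR = 0.1003) and -3.97 ± 0.96 (FDR = 0.0900). Ighv1-19 had 2 and 4 counts in CTRL, 16 and 106 for AngII, 13 and 17 for AngII+2W and 28 and 16 for AngII+3W. All 6 libraries of the infused groups lay above CTRL, and the log2 fold change was 4.31 ± 0.95 for AngII (FDR = 0.0453), 2.35 ± 1.03 for AngII+2W (FDR = 0.479) and 2.99 ± 1.00 for AngII+3W (FDR = 0.277). The call for Ighv1-82 was lost without CTRL replicate 1 or 2, AngII replicate 1 or 2, or AngII+2W replicate 1 or 2 (FDR between 0.117 and 0.193). That for Ighv1-19 was lost without CTRL replicate 1 or 2, AngII replicate 2, or AngII+2W replicate 1 or 2 (FDR between 0.0952 and 0.223).

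Among the 135 kept segments, use of variable segments was most concentrated in CTRL. These segments were kept by counts summed over all 8 libraries, to which AngII replicate 2 gave the most. Segments found mainly in a library of few counts, such as CTRL replicate 1, could thus be left out more easily. The numbers below describe the kept set only. At least 1 count was found for 70 and 94 of the 135 segments in CTRL, 88 and 117 for AngII, 103 and 90 for AngII+2W and 110 and 103 for AngII+3W. These libraries held between 548 and 3152 variable segment counts. At 548 counts in each, the expected numbers of segments were 70.0 and 84.2 for CTRL, 82.1 and 93.6 for AngII, 93.0 and 85.0 for AngII+2W and 93.2 and 96.0 for AngII+3W. At that equal depth AngII overlapped CTRL, and AngII+2W and AngII+3W lay above it. The leading segment took 23.7% of variable counts in CTRL replicate 1 (Igkv6-20), 10.8% in CTRL replicate 2 (Iglv1) and between 4.95% and 8.56% in the other 6 libraries. The 10 leading segments of each library together took 65.3% and 50.7% for CTRL, 34.4% and 34.7% for AngII, 41.6% and 40.2% for AngII+2W and 43.9% and 39.6% for AngII+3W. The effective number of segments, the inverse of the summed squared shares, was 11.7 and 27.0 for CTRL, 45.0 and 49.5 for AngII, 38.8 and 39.0 for AngII+2W and 37.5 and 39.5 for AngII+3W. The CTRL libraries thus lay apart from all others on both measures.

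**Figure D5:**
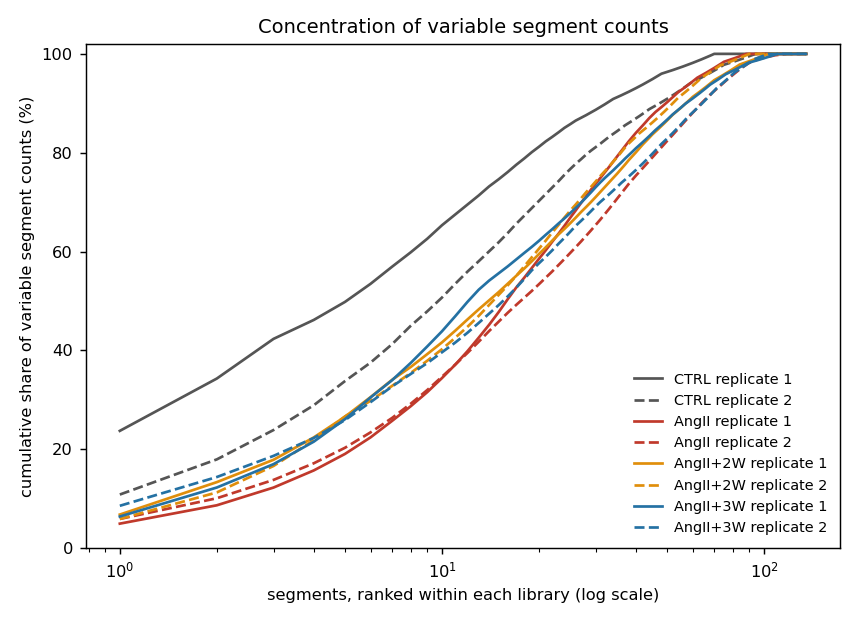
Cumulative share of variable segment counts (%) against the number of segments, ranked within each library and drawn on a log scale, with solid lines for replicate 1 and dashed lines for replicate 2. The CTRL curves lie highest, with 65.3% and 50.7% of counts in 10 segments, and those of AngII lowest, with 34.4% and 34.7%.

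Which segments led differed from library to library. Over the 8 libraries, 7 different segments ranked first, and only Iglv1 did so in 2. Of the 135 segments, 68 had over 50% of their counts in a single library, which was AngII replicate 2 for 31 and AngII+3W replicate 1 for 11. Only 10 segments reached 3 counts in all 8 libraries, and 12 did so in only 1. AngII replicate 2 was the highest library for 67 segments, as it was for the constant regions Igha, Igkc, Ighg1, Ighg2b and Ighg2c. The next 2 segments were picked after their values were seen, as leaders of a single library. In AngII+3W replicate 1, Igkv2-112 had 73 counts, against 15 in CTRL replicate 1 and at most 1 in the other 6. In AngII+2W replicate 2, Igkv8-27 had 43 counts, against between 0 and 23 elsewhere. By family, the 37 Ighv1 segments took 29.7% and 40.5% of heavy variable counts in CTRL, 49.2% and 55.4% for AngII, 42.3% and 41.5% for AngII+2W and 35.5% and 42.8% for AngII+3W. The AngII libraries were the 2 highest for this family. The 7 Igkv6 segments took 44.1% of kappa variable counts in CTRL replicate 1 and between 5.32% and 17.2% in the other libraries.

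Among genes of plasma cells, which secrete antibody, 1 passed the test. Of 14 tested genes of this list, 1 was higher in AngII at FDR 0.05 and 0 lower, with a median log2 fold change of 0.18, and 3 were higher at an unadjusted p below 0.05. The 1 was Sdc1, a heparan sulfate proteoglycan also made by epithelial and other cells, at 17.8 and 13.6 CPM in CTRL and 35.6 and 47.1 for AngII (1.40, FDR = 0.0175). Jchain, which encodes the chain that joins IgA and IgM into polymers, had 8.77 and 12.5 CPM in CTRL, 11.7 and 45.4 for AngII, 14.5 and 14.01 for AngII+2W and 26.1 and 19.6 for AngII+3W. It was highest in AngII replicate 2, as was Igha, and its log2 fold change in AngII was 1.43 ± 0.54 (FDR = 0.188). The endoplasmic reticulum genes Mzb1 and Derl3, the B cell coactivator Pou2af1 and the survival receptor Tnfrsf17 had between 0 and 47 counts per library, and the 3 of them that were tested did not pass (FDR between 0.443 and 0.986). The summed level of the list was 424 and 346 CPM in CTRL and 428 and 430 for AngII. It was 406 and 316 CPM for AngII+2W and 333 and 315 for AngII+3W. Xbp1, Irf4, Ell2 and Tent5c, with CTRL means of 107, 74.9, 74.7 and 70.1 CPM, made up most of the CTRL sum. The sum therefore says little about the scarcer genes of the list.

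B cell genes were low in all groups. The 16 summed to 37.6 and 36.8 CPM in CTRL, 38.3 and 43.4 for AngII, 36.9 and 45.0 for AngII+2W and 50.04 and 29.6 for AngII+3W. The median log2 fold change in AngII was -0.11, with 1 gene higher, the signalling adaptor Blnk, which macrophages also express (1.00, FDR = 0.0367), and none lower. Cd79a, Cd79b, Ms4a1 and Pax5 had between 12 and 79 counts in every library and log2 fold changes in AngII between -0.69 and 0.01. Of 15 T cell genes, edgeR called none in AngII, with 1 higher at an unadjusted p below 0.05, and Cd3d, Cd3e and Cd3g, the signalling chains of the T cell receptor, had log2 fold changes between -0.43 and 0.08. Of the 6 tested genes of recombination, switching and the germinal centre, edgeR called none in AngII, with 1 higher at an unadjusted p below 0.05. Of 7 genes of lymph node stroma and high endothelial venules, Glycam1 was at 0 in all 8 libraries and Madcam1 in 7, with 2 counts in AngII+2W replicate 1. Chst4, an enzyme of the venules, had between 11 and 62 counts in every library, and Ccl19 and Ccl21a were also found in all 8.

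Some receptors for antibody, chemokines and macrophage genes rose in AngII. Of 10 tested Fc receptor and transport genes, 3 were higher in AngII and none lower, with a median of 1.02. They were the activating receptors Fcgr1 (2.03, FDR = 0.0409) and Fcgr4 (2.30, FDR = 0.0402) and the inhibitory receptor Fcgr2b (1.66, FDR = 0.0208). Of 10 tested genes for the survival and attraction of B-lineage cells, 3 were higher in AngII and none lower, with a median of 0.91, and all were chemokines. Cxcl12, which retains plasma cells in bone marrow, had 111 and 121 CPM in CTRL and 251 and 250.01 for AngII (1.11, FDR = 0.00778), Ccl21a had 2.24 and 3.58 and then 12.8 and 27.1 (2.78, FDR = 0.0208), and Ccl19 rose by 1.52 (FDR = 0.0379). Ccl19 and Ccl21a also stand in the list of 7 lymph node stroma genes, of which 4 were tested, and their near copies make these values uncertain. None of these 6 genes passed the test against CTRL in AngII+2W or AngII+3W. Of 15 macrophage genes, 7 were higher in AngII, namely Ccr2 (1.98, FDR = 0.00778), Cd68 (2.13, FDR = 0.0210), Adgre1 (1.82, FDR = 0.0258), Itgam (1.31, FDR = 0.0304), C1qb (1.63, FDR = 0.0404), Mrc1 (1.71, FDR = 0.0426) and Fcgr1, and none lower. The list summed to 507 and 370 CPM in CTRL, 947 and 1481 for AngII, 613 and 599 for AngII+2W and 313 and 523 for AngII+3W, with no gene at 0 in any library, and was highest in AngII replicate 2, as was the summed immunoglobulin level.

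The other tissue markers were read in the same fit. Of 5 fibroblast genes, 2 were higher in AngII, Lum (2.90, FDR = 0.0150) and Col1a1 (3.03, FDR = 0.0322), and their list summed to 2049 and 1237 CPM in CTRL and 7804 and 12683 for AngII. Of 5 smooth muscle genes, 4 were lower in AngII, namely Acta2 (-2.18, FDR = 0.0133), Myh11 (-2.26, FDR = 0.0172), Tagln (-2.15, FDR = 0.0116) and Cnn1 (-2.23, FDR = 0.0124), and 3, Acta2, Tagln and Cnn1, were lower in AngII+3W. The 5 red blood cell genes summed to 4357 and 4296 CPM in CTRL, 3021 and 3060 for AngII, 980.2 and 2559 for AngII+2W and 1182 and 787 for AngII+3W, with none past FDR 0.05. None of the 7 adipocyte, 7 skeletal muscle and 5 endothelial genes passed in AngII. The part of macrophages, fibroblasts, blood and muscle in the immunoglobulin values was not tested.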

How the data were processed

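Aortic RNA of 8 libraries was analysed from the deposited gene-level table of estimated counts. According to the study's methods, the authors depleted ribosomal RNA, sequenced paired ends on 1 lane, quantified reads with Salmon against Ensembl cDNA of GRCm38 and summed transcripts to genes within the ARMOR workflow. The estimated counts in the deposited table were whole numbers. Reads of rearranged genes were thus assigned to germline segments, and near-identical segments can share them. Counts were scaled by TMM and tested with the quasi-likelihood F test of edgeR 4.0.16 in R 4.3.3, after the filter of filterByExpr, in 1 fit of all 8 libraries with 1 coefficient per group, 4 residual degrees of freedom and Benjamini-Hochberg adjustment (FDR) over 17182 genes. CPM used the same scaling. All tests were two-sided, and a replicate is pooled tissue of 2 mice, so that p-values measure the spread between such pools. Sequences were read from GENCODE M21 and aligned with Biopython 1.88. DESeq2 1.42.0 and limma 3.58.1 served as alternatives. The scripts were tested on simulated data. Named genes were all constant regions, the 10 variable segments with the most counts, every member past FDR 0.05 in any of 6 comparisons, the defining plasma, B and T cell genes, and, of the other lists, genes past FDR 0.05 against CTRL. The members and lists were chosen with earlier results of these data known. A symbol listed under 2 gene identifiers was read from its first row. Some genes of the lists are not reported here by name.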

Additional observations from a re-analysis of the deposited data

Results flagged for a closer look

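The effect of AngII+3W on Ighg2b differed from that of AngII. The log2 fold change over CTRL was 3.07 in AngII+3W and 5.01 in AngII, and the difference of -1.94 ± 0.32 passed the test of edgeR (FDR = 0.0410). Both effects use the same CTRL libraries, so that this difference is the contrast of AngII+3W with AngII itself, in which both AngII+3W libraries (1.51 and 1.40 CPM) lay below both AngII libraries (5.13 and 6.07 CPM).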

How the results depend on the processing

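Counts of called members moved with the test. In AngII against CTRL (4 called), there were 2 with library totals, 8 with every gene of at least 1 count, 15 with DESeq2, 28 with the likelihood ratio test, 8 with only the 2 groups, and 0 to 10 when 1 library was left out. In AngII+2W against CTRL (0 called), these settings gave 1 with at least 1 count, 2 with DESeq2, 4 with the likelihood ratio test and 0 to 1 without a library, and in AngII+3W against CTRL (0 called) they gave 1, 4, 5 and 0 to 1. In AngII+2W against AngII (0 called), DESeq2 gave 1, the likelihood ratio test 5 and only the 2 groups 2. In AngII+3W against AngII (1 called), the values were 2 with DESeq2, 4 with the likelihood ratio test, 2 with the newer quasi-likelihood form, 0 with only the 2 groups and 0 to 2 without a library. In AngII+3W against AngII+2W (0 called) the likelihood ratio test gave 1. The cause of these moves was not tested, except that fewer genes or samples entered some fits. A group left with 1 library was assumed to vary like the others. The direction turned in some fits that left out 1 library, over which the log2 fold change in AngII against CTRL ranged from -1.62 to 2.47 for Ighg3, -1.94 to 0.89 for Iglc3, -0.70 to 0.12 for Ighd, -2.55 to 0.84 for Iglc1 and -0.64 to 0.15 for Iglc2. In AngII+2W against CTRL, Ighg1 ranged from -3.10 to 3.14. Against AngII, Igha ranged from -2.35 to 0.36 in AngII+2W and from -2.72 to 0.36 in AngII+3W, and Ighg2c from -2.65 to 0.10 in AngII+2W. Ighg3 also turned with limma-voom (0.28), and Iglc3 with limma-voom (-0.38) and the replicate block (-0.24). None of these was called. Same-numbered replicates came from different mice, so that the numbers do not pair the libraries by animal. The correlations of their deviations over the 6 pairs of groups ranged from -0.04 to 0.25. Whether same-numbered libraries shared handling was not tested. With the replicate block 5 members were called in AngII against CTRL, with Igha (FDR = 0.0324) among the 3 gained, and Ighg2c (FDR = 0.0619) and Ighv1-19 (FDR = 0.0587) lost. Of the levels, the heavy variable mean in AngII+3W was 22.2 CPM by library totals. Per kilobase of the shortest transcript the mean IgM share in AngII+2W was 35.1%, and the IgG share was 2.00% for CTRL and 8.14% for AngII+2W. With at least 3 counts, a library showed on average 46.5 segments (CTRL), 80.0 (AngII), 67.0 (AngII+2W) or 78.5 (AngII+3W). At equal variable counts, a setting chosen after seeing the data, the mean expected number with at least 1 count was 94.6 for AngII+3W. With 2 pools a group, these data limit the precision of every fold change, and members under 3 counts in a library were not distinguishable from absent there.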

Other observations

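Some variable segments, singled out here after their values were seen, showed patterns that the named segments did not. Igkv6-17 had 0 counts in both CTRL libraries and was detected in all 6 others, with 9 and 7 counts in AngII, 11 and 4 for AngII+2W and 8 and 13 for AngII+3W. Against a floor of 3 counts per library it was at least 2.81-fold, 2.61-fold and 3.93-fold higher than CTRL in these groups, and it did not pass FDR 0.05 for AngII (FDR = 0.0525), AngII+2W (FDR = 0.265) or AngII+3W (FDR = 0.101). The counts of Ighv11-2 and Igkv14-126 were highest in the CTRL libraries and AngII replicate 1. Ighv11-2 had 21 and 21 counts in CTRL, 27 and 2 for AngII, 1 and 4 for AngII+2W and 9 and 2 for AngII+3W. Igkv14-126 had 44 and 16 counts in CTRL, 27 and 1 for AngII, 1 and 7 for AngII+2W and 5 and 5 for AngII+3W. Rag1, which encodes a recombinase subunit of developing lymphocytes, had 63 counts in AngII+3W replicate 2, 15 for AngII+3W replicate 1 and at most 7 elsewhere, and its difference from CTRL did not pass (FDR = 0.287). From the same list, Dntt had 13 counts in AngII+3W replicate 2, 3 for AngII+3W replicate 1 and at most 1 elsewhere, and was not tested. Rag2 had between 12 and 30 counts in every library.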
